A study of Mus musculus with 16 samples.

Results

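The comparison described here set hearts with high transcript levels of 3 hypertrophy markers against hearts with low levels of them, within each genotype of the study. The groups were chosen by measured values: each library was scored by the mean over Nppa, Nppb and Myh7 of the log2 of its deposited normalized value plus 1, centred for each gene over the 16 libraries. Within each genotype of 8 mice, the 4 libraries with the highest score formed the marker-high group and the 4 with the lowest score the marker-low group, so that 8 marker-high and 8 marker-low libraries took up all 16 libraries. These groups are not groups of the study, and the 3 score genes were left out of every test.

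The samples were left ventricles of C57BL/6 mice, sequenced as bulk RNA with 1 library per mouse. One genotype was Tln2-null and the other Tln2-null with Tln1 knocked out specifically in CF, which the series title spells out as cardiac fibroblasts; the second is called knockout here, and both lack Tln2. Every mouse, in both genotypes, was given intraperitoneal tamoxifen over 5 days, then, after a gap of 2 weeks, an osmotic pump that delivered angiotensin II (AngII), a hormone that raises blood pressure, over 8 weeks. Each genotype had 4 males and 4 females, and each marker group held 2 males and 2 females of each genotype; the labels give neither the age of the mice nor the Cre driver, and no mouse without AngII was analysed here. Mice are named by genotype and by a number from 1 to 8 that follows the order of the records. In Tln2-null mice, numbers 4, 5, 6 and 7 were marker-high and numbers 1, 2, 3 and 8 marker-low. In knockout mice, numbers 1, 2, 5 and 8 were marker-high and numbers 3, 4, 6 and 7 marker-low.

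Nppa and Nppb encode atrial and brain natriuretic peptide, hormones that cardiomyocytes release under wall stress and that lower blood pressure. Myh7 encodes beta-myosin heavy chain, the slow myosin of the fetal rodent ventricle, which the adult rodent ventricle largely replaces with the alpha chain encoded by Myh6. All 3 are textbook markers of cardiomyocyte hypertrophy, and long exposure of the heart to AngII is also known to activate fibroblasts and deposit collagen.

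The sequences just before the start sites of the 3 score genes are shown because these genes defined the groups and are commonly read as 1 programme. They are the 250 bases upstream of the RefSeq start in GRCm38.p6, 5′ to 3′ on the strand of the gene, with capitals marking matches on either strand to GATAA, the core that GATA factors bind, or to CATTCC, the core of the M-CAT element bound by TEAD factors. They lie at chr4:148000472-148000721 (plus strand) for Nppa, chr4:147985650-147985899 (plus strand) for Nppb and chr14:54994627-54994876 (minus strand) for Myh7.
Nppa: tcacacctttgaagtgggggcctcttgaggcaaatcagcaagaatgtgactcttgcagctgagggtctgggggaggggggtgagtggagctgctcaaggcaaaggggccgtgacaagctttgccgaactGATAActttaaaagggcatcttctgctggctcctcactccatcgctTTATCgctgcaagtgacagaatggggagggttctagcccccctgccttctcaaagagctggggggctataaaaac
Nppb: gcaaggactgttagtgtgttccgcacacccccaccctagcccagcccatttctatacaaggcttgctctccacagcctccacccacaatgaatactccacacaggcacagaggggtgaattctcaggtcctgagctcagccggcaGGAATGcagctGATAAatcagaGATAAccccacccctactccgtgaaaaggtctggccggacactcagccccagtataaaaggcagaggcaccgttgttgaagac
Myh7: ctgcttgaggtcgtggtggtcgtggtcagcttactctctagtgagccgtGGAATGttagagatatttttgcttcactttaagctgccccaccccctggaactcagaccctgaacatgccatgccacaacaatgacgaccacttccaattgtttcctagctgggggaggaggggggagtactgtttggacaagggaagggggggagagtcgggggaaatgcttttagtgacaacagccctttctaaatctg
The Nppa window held 2 GATAA matches and the Nppb window 2 GATAA matches and 1 CATTCC match. The Myh7 window held 1 CATTCC match and no GATAA. Of all 32851 RefSeq promoter windows of this length, 22.6% held GATAA and 12.6% held CATTCC, and the matches are a description of letters only.

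Total counts ran from 11161766 to 19221673 per library, the span of the marker-high group, and from 14159641 to 19008552 in the marker-low group. Cardiomyocyte defining markers were abundant in every library, with Myh6 between 19262 and 21568 unscaled CPM (counts over the library total) in marker-high and between 19421 and 21651 in marker-low libraries. Of the 4 atrial defining markers, Sln had 5, Bmp10 2 and Myl7 43 counts in all libraries together, Myl7 reaching 0.815 unscaled CPM in a marker-high library. Myl4 was detected in every library (805 counts), with medians of 3.19 unscaled CPM in marker-high and 2.61 in marker-low libraries, and the part of atrial tissue in the score was not tested. Tln1 stood at a median of 290 unscaled CPM in Tln2-null and 275 in knockout libraries (n = 8 each), with overlapping ranges, and Tln2 at 66.2 and 66.8; whole-ventricle RNA includes cells in which Tln1 was not targeted, and counts over a whole gene need not show a deleted part. Of the 8 female libraries, 4 had reads from Y-linked genes, at over 1 percent of the mean of males, and 2 of these fell in each marker group. The libraries of Tln2-null mouse 8 and knockout mouse 8 stood apart in clock genes: Arntl, a core clock activator, read 28.4 and 27.1 CPM there and between 3.66 and 8.44 CPM in the others.

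The 3 markers chose the groups, so their values are given as a description without a test. In CPM with library totals scaled by TMM, the unit used from here on, Nppa ran from 758 through a median of 1107 to 1899 in the 8 marker-high libraries and from 290 through 679 to 1230 in the 8 marker-low libraries. Nppb ran from 77.5 through 185 to 507 in marker-high and from 10.2 through 97.1 to 629 in marker-low libraries. Myh7 ran from 554 through 1236 to 1702 in marker-high and from 137 through 856 to 1206 in marker-low libraries. Over both genotypes together, every marker therefore overlapped between the groups. Within Tln2-null mice Myh7 did not overlap, at 1334 to 1702 CPM in marker-high and 137 to 1206 CPM in marker-low hearts. In knockout mice it did, at 554 to 1139 and 578 to 998 CPM. For each marker, 6 of the 8 marker-high libraries were among the 4 highest of their genotype. For Myh7 the marker-high hearts ranked 1 to 4 in Tln2-null mice, but 1, 2, 5 and 8 in knockout mice.

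The markers disagreed widely in some libraries, among them the pair that stood apart in clock genes. In Tln2-null mouse 8, a marker-low heart, Nppb was at 629 CPM, the highest of all 16 libraries, while Myh7 was at 137 CPM, the lowest. In knockout mouse 8, a marker-high heart, Nppb was at 507 CPM and Myh7 at 554 CPM, the lowest Myh7 of any marker-high library. Tln2-null mouse 1 had the lowest Nppb, at 10.2 CPM, with Myh7 at 1138 CPM. A high level of 1 marker was thus not a high level of all 3.

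**Figure D1:**
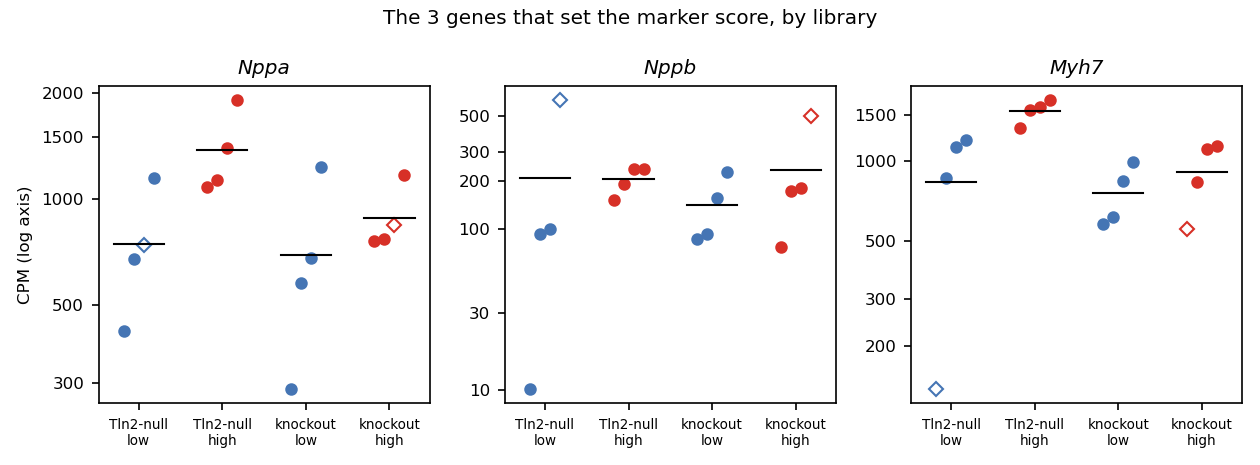
CPM of Nppa, Nppb and Myh7 (log axes) in each library by genotype and marker group, with a bar at the mean of the 4 libraries; open diamonds are mouse 8 of each genotype. The 2 diamonds are the 2 highest Nppb values, 629 and 507 CPM, and Tln2-null mouse 8 has the lowest Myh7, 137 CPM.

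The scores were spread wider in Tln2-null mice. The mean score was 0.65 in marker-high and -0.49 in marker-low Tln2-null libraries, a difference of 1.13, and 0.13 and -0.29 in knockout libraries, a difference of 0.42 (log2 units, n = 4 each). At the boundary in Tln2-null mice, mouse 4 was just inside the marker-high group with a score of 0.46 and mouse 3 just outside with -0.03. In knockout mice the corresponding scores were -0.05 for mouse 2 and -0.09 for mouse 6, so that the knockout groups met almost without a gap. Leaving Nppa out of the score moved 2 libraries to the other group, leaving out Nppb moved 2, and leaving out Myh7 moved 4.

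Across the 8 against 8 hearts, with genotype as a covariate, 3 genes were higher in marker-high hearts and 1 was lower in edgeR's quasi-likelihood test at an adjusted p under 0.05. These are 0.0218 percent and 0.00726 percent of 13772 genes tested. At an unadjusted p under 0.05, 789 genes (5.73 percent) were higher and 561 (4.07 percent) lower. The median log2 fold change over all genes was -0.0046 and the median SE 0.09. Of all genes tested, 48.5 percent had a positive log2 fold change. DESeq2 on the same counts called 110 genes higher and 28 lower, the 4 among them. As the groups were selected on measured values, these p-values bear on whether a gene goes with the 3 markers across these mice, not on a treatment.

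The 3 genes that rose encode a secretory-pathway protein, a cytoskeletal regulator and a signalling adaptor. Rcn3 (chromosome 7, 45082913 to 45092221, minus strand, GRCm38) encodes reticulocalbin 3, a calcium-binding protein of the endoplasmic reticulum that takes part in collagen production. In Tln2-null mice it read 44.3, 47.9, 49.6 and 51.2 CPM in marker-high and 26.5, 34.7, 30.8 and 31.6 CPM in marker-low hearts. In knockout mice it read 31.5, 35.4, 34.6 and 31.6 CPM in marker-high and 32.1, 24.7, 20.8 and 24.0 CPM in marker-low hearts. All marker-high hearts were above all marker-low hearts in Tln2-null mice, whereas in knockout mice marker-low mouse 3 overlapped with the marker-high hearts. The means were 40.8 ± 8.3 and 28.1 ± 4.8 CPM (± SD over 8 hearts each). The log2 fold change, marker-high minus marker-low, was 0.52 ± 0.08 (± SE) with an edgeR adjusted p of 0.0310. Rcn3 overlaps Gm45669 on the other strand, and the sources used here do not say whether counting used strand.

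Rhoc (chromosome 3, 104788375 to 104794459, plus strand) encodes a small GTPase that controls actin and contractility. In Tln2-null mice it read 94.4, 91.8, 96.6 and 83.7 CPM in marker-high and 57.3, 64.4, 70.4 and 75.8 CPM in marker-low hearts. In knockout mice it read 69.6, 84.9, 83.8 and 75.9 CPM in marker-high and 60.7, 63.9, 62.5 and 64.2 CPM in marker-low hearts. Within each genotype every marker-high heart was above every marker-low heart. The log2 fold change of Rhoc was 0.39 ± 0.06 (edgeR adjusted p = 0.0310).

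Gab2 (chromosome 7, 97081586 to 97308946, plus strand) encodes an adaptor that carries signals from growth factor and cytokine receptors. In Tln2-null mice it read 60.6, 67.8, 72.0 and 61.9 CPM in marker-high and 50.9, 53.1, 44.4 and 46.6 CPM in marker-low hearts. In knockout mice it read 50.4, 57.1, 49.5 and 49.9 CPM in marker-high and 45.6, 42.7, 43.0 and 40.6 CPM in marker-low hearts. The marker groups did not overlap within either genotype, but the marker-high knockout hearts were at about the level of the marker-low Tln2-null hearts. Gab2 had a log2 fold change of 0.35 ± 0.06 (edgeR adjusted p = 0.0360).

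The gene that fell, Gm19522 (chromosome 16, 42884370 to 42912065, minus strand), is annotated as an antisense transcript within Zbtb20. In Tln2-null mice it read 1.53, 1.89, 1.43 and 2.45 CPM in marker-high and 2.88, 2.64, 4.89 and 3.54 CPM in marker-low hearts. In knockout mice it read 1.97, 1.56, 1.96 and 2.23 CPM in marker-high and 3.69, 3.98, 3.87 and 3.69 CPM in marker-low hearts. Every marker-low heart was above every marker-high heart in both genotypes, at low levels throughout. Its log2 fold change was -0.95 ± 0.15 (edgeR adjusted p = 0.0310). Reads of the gene and of Zbtb20 cannot be told apart where counting ignores strand; Zbtb20 itself, a transcriptional repressor, had 16.02 ± 1.92 CPM in marker-high and 16.15 ± 2.31 CPM in marker-low hearts, with a log2 fold change of -0.01 ± 0.09 (edgeR adjusted p = 0.988) whose sign turned under other settings.

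None of the 4 calls held in every setting. Each was lost when Tln2-null mouse 3, 4, 5, 6 or 8 or knockout mouse 2, 6 or 7 was left out, those of Rcn3 and Gab2 also without Tln2-null mouse 1 and those of Rcn3, Rhoc and Gab2 without Tln2-null mouse 7, with adjusted p up to 0.10 for Rcn3, Rhoc and Gm19522 and 0.118 for Gab2, and also when Nppa or Myh7 was left out of the score (edgeR adjusted p of 0.734 and 0.991 for each). All 4 kept their direction in all 35 alternatives.

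Without a test of its own, the order of the hearts was also counted. In both genotypes at once, every marker-high heart was above every marker-low heart for 12 genes (0.0871 percent of the genes tested) and below for 8 (0.0581 percent). Besides Rhoc and Gab2, the first set included Col8a2, Frem1, Mfap2 and Srpx2, which encode secreted or matrix proteins, and Bak1, Cks1b, Hmces, Cttn and Ctdspl. Besides Gm19522, the second included Ces1d, the mitochondrial enzyme gene Gcdh, and Fam72a, Gid4, Tarsl2 and Papd5. Those of them that stand nowhere else in the text were named after their values were seen.

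None of the genes of next lowest p on the higher side passed. Col8a2 encodes a chain of the short-chain collagen VIII. It read 11.6, 10.9, 16.2 and 5.41 CPM in marker-high and 1.12, 4.80, 1.51 and 1.91 CPM in marker-low Tln2-null hearts. In knockout hearts Col8a2 read 2.33, 5.85, 1.85 and 2.41 CPM in the marker-high and 1.85, 0.593, 0.679 and 1.09 CPM in the marker-low group. The groups did not overlap within either genotype, but in knockout mice the lowest marker-high and the highest marker-low heart both rounded to 1.85 CPM. The log2 fold change was 1.96 ± 0.35 (edgeR adjusted p = 0.0631).

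Col1a2, a chain of the main fibrillar collagen, ran from 183 through a median of 294 to 377 CPM in marker-high and from 123 through 186 to 232 CPM in marker-low hearts. The log2 fold change of Col1a2 was 0.61 ± 0.12 (edgeR adjusted p = 0.0737). Other genes of this rank had the same adjusted p of 0.0737: Ptn, a heparin-binding growth factor, at 1.48 ± 0.29, Loxl3, a collagen cross-linking lysyl oxidase, at 0.78 ± 0.15, Col27a1, a fibrillar collagen, at 0.50 ± 0.10, and Crip1, a LIM-domain protein, at 0.33 ± 0.06 on the log2 scale. For Ptn, Loxl3 and Col1a2 the marker groups overlapped within knockout mice but not within Tln2-null mice.

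On the lower side, none of the genes of next lowest p passed. Gpt2, the mitochondrial alanine transaminase, ran from 38.9 through 42.9 to 59.8 CPM in marker-high and from 53.6 through 59.8 to 64.3 CPM in marker-low hearts, with a log2 fold change of -0.42 ± 0.08. Kcnv2, a modifier subunit of potassium channels, ran from 6.11 through 8.85 to 13.3 CPM in marker-high and from 11.8 through 14.4 to 20.3 CPM in marker-low hearts, with -0.71 ± 0.13. Kcnj3, a subunit of the channel that acetylcholine opens in heart, had -0.35 ± 0.07, and Adi1, an enzyme of methionine salvage, -0.35 ± 0.07. All 4 had an edgeR adjusted p of 0.0737. The oviductal glycoprotein gene Ovgp1 (-0.67 ± 0.14), the carboxylesterase gene Ces1d (-0.66 ± 0.16), the calreticulin relative Calr3 (-0.43 ± 0.10), the tubulin-modifying Agtpbp1 (-0.26 ± 0.06) and the chromatin reader Mllt3 (-0.26 ± 0.06) followed with adjusted p between 0.0921 for Ovgp1 and 0.118 for Ces1d.

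**Figure D2:**
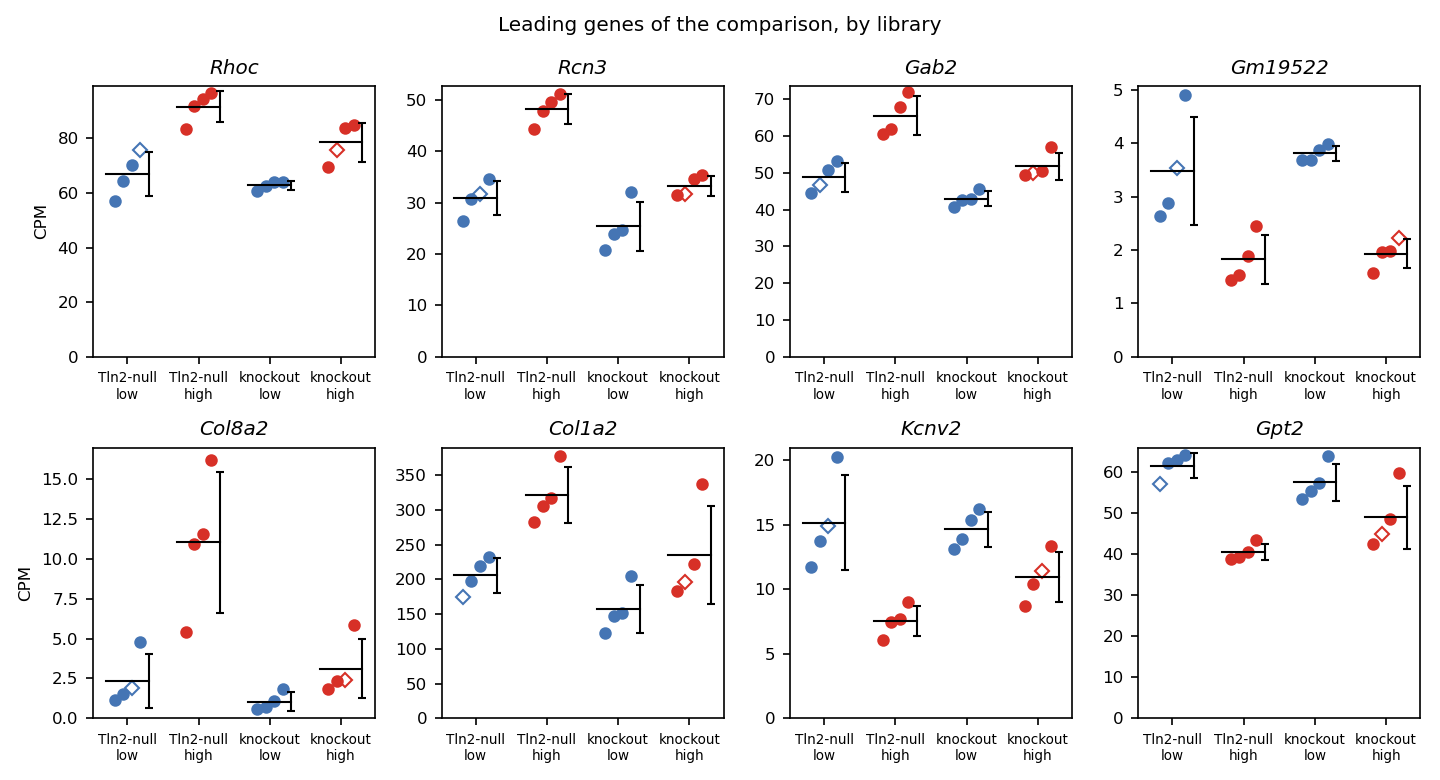
CPM of 8 leading genes in each library by genotype and marker group; bars are the mean and SD of 4 libraries, and open diamonds are mouse 8 of each genotype. Rhoc, Gab2 and Gm19522 separate the marker groups within both genotypes, while Rcn3, Col1a2, Kcnv2 and Gpt2 overlap in knockout mice.

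Other genes of cardiomyocyte hypertrophy did not go with the score to a degree that passed the test. Myh6, the adult myosin whose sequence is near-identical to that of Myh7 in long stretches, had 20174 ± 1038 CPM in marker-high and 20420 ± 987 CPM in marker-low hearts, a log2 fold change of -0.02 ± 0.04 (edgeR adjusted p = 0.928). Acta1, skeletal actin of the fetal heart, had 0.07 ± 0.28 (adjusted p = 0.964), and Ankrd1, a stress-induced titin-binding protein, 0.27 ± 0.18 (0.666). Atp2a2, the calcium pump of the sarcoplasmic reticulum, had -0.11 ± 0.04 (0.391), and its inhibitor Pln -0.10 ± 0.07 (0.728). For Myh6, Acta1 and Pln the sign turned under some settings. The groups overlapped for each of these genes.

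Of 27 measured members of the fetal gene programme and hypertrophy list, with the score genes left out, 21 were higher and 6 lower in marker-high hearts, with 1 and 1 at an unadjusted p under 0.05 and a median log2 fold change of 0.09. The median was 0.15 in Tln2-null and 0.00 in knockout mice. Among its members, Uchl1, a ubiquitin hydrolase, had 0.38 ± 0.12 (edgeR adjusted p = 0.269), Rcan1, a calcineurin target, 0.38 ± 0.20 (0.556), and Myl4, the atrial light chain, 0.38 ± 0.20 (0.563). Of 12 measured genes of the natriuretic peptide pathway, 3 were higher and 9 lower, with a median of -0.08 (-0.14 in Tln2-null and 0.02 in knockout mice) and none called. Corin, the protease that activates pro-ANP, had -0.21 ± 0.08 (adjusted p = 0.338), and Mme, the peptidase neprilysin that degrades natriuretic peptides, -0.30 ± 0.16 (0.546).

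Sarcomere genes (10 of 25 higher, median -0.01), calcium-handling genes (13 of 28 higher, median -0.0039) and the 15 measured angiotensin and aldosterone pathway genes (7 higher, median -0.03) had medians close to that of all genes. For the sarcomere list 18 of 25 were higher in Tln2-null mice (median 0.05) and 2 of 25 in knockout mice (median -0.07), and for calcium handling the medians were -0.02 and -0.04. Within calcium handling, Hrc, the histidine-rich calcium-binding protein of the sarcoplasmic reticulum, had -0.14 ± 0.05 (edgeR adjusted p = 0.240), Ryr2, the calcium release channel, -0.15 ± 0.05 (0.304), and Cacna1g, a T-type calcium channel, 0.28 ± 0.12 (0.455). Of 26 potassium and sodium channel genes, 17 were lower, 5 of them and 1 higher gene at an unadjusted p under 0.05, with a median of -0.10. Scn4b, a sodium channel beta subunit, had -0.80 ± 0.26 (adjusted p = 0.254), and Kcnd3, which carries transient outward current, -0.27 ± 0.09 (0.303).

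Genes of the extracellular matrix were higher as a group in marker-high hearts. All 32 measured members of the list of fibrillar collagens and matrix glycoproteins had a positive log2 fold change, 28 of them at an unadjusted p under 0.05, against 5.73 percent of all genes, but none passed the adjusted test. The median was 0.55, beside -0.0046 over all genes, and 0.58 in Tln2-null and 0.52 in knockout mice. Fmod, a small proteoglycan that steers collagen fibril growth, ran from 2.38 through 15.3 to 54.0 CPM in marker-high and from 0.771 through 2.27 to 17.2 CPM in marker-low hearts (2.21 ± 0.49, edgeR adjusted p = 0.0921). Tnc, the matricellular tenascin C, had 1.23 ± 0.27 (0.0921), and Col1a1, the partner chain of Col1a2, 0.62 ± 0.16 (0.150). Col1a1, like Postn and Spp1 further on, was named after its values were seen.

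Of 28 genes of activated fibroblasts and myofibroblasts, 25 were higher and 3 lower, 18 at an unadjusted p under 0.05, all of these higher, with a median of 0.73 and none called. The median was 0.70 in Tln2-null and 0.72 in knockout mice. Thbs4, a thrombospondin of stressed matrix, ran from 18.3 through 64.8 to 161 CPM in marker-high and from 11.7 through 15.3 to 40.5 CPM in marker-low hearts (1.61 ± 0.33, edgeR adjusted p = 0.0779). Postn, periostin, the classic product of activated cardiac fibroblasts, ran from 87.1 through 240 to 410 CPM in marker-high and from 56.0 through 102 to 152 CPM in marker-low hearts (1.07 ± 0.26, 0.118). Sfrp2, a secreted Wnt modulator, had 1.83 ± 0.37 (0.0779), and Cilp, a matrix protein of fibrotic heart, 1.61 ± 0.34 (0.0921). Ltbp2, a latent TGF-beta binding protein family member named from the TGF-beta and activin list, had 1.67 ± 0.36 (0.0921). The collagen, activated fibroblast and fibroblast marker lists share some members, such as Fmod and Tnc. Spp1, osteopontin, which stands on the cytokine list and not on the activated fibroblast list, was low, at 1.85 ± 0.81 against 0.676 ± 0.444 CPM (1.46 ± 0.30, 0.0779).

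Libraries within a group differed widely in these genes. The level of the collagen and glycoprotein list, as the mean centred log2 CPM of its members, was 0.82, 0.63, 0.74 and 0.24 in the marker-high and -0.30, 0.24, -0.18 and -0.15 in the marker-low Tln2-null hearts. In knockout hearts it was -0.12, 0.60, -0.35 and -0.10 in the marker-high and -0.11, -0.61, -0.78 and -0.56 in the marker-low group. Knockout mouse 2 stood alone among marker-high knockout hearts, while knockout mouse 5, also marker-high, was below every marker-low Tln2-null heart. The marker groups overlapped in knockout mice, and in Tln2-null mice marker-high mouse 7 and marker-low mouse 2 both rounded to 0.24, with no overlap.

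How much higher the matrix genes were changed with the markers in the score, which also changed the groups. Leaving Nppa out lowered the median of the collagen and glycoprotein list from 0.55 to 0.20 and that of the activated fibroblast list from 0.73 to 0.31. Leaving Myh7 out gave 0.30 and 0.43, and leaving Nppb out 0.56 and 0.67. Without Nppa, knockout mouse 2 (collagen list level 0.60) became marker-low and knockout mouse 6 (-0.78) marker-high. Without Myh7, knockout mouse 2 and Tln2-null mouse 7 became marker-low and knockout mouse 3 and Tln2-null mouse 8 marker-high. Without Nppb, knockout mouse 8 became marker-low and knockout mouse 3 marker-high. The part of a marker and of these few hearts cannot be told apart.

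**Figure D3:**
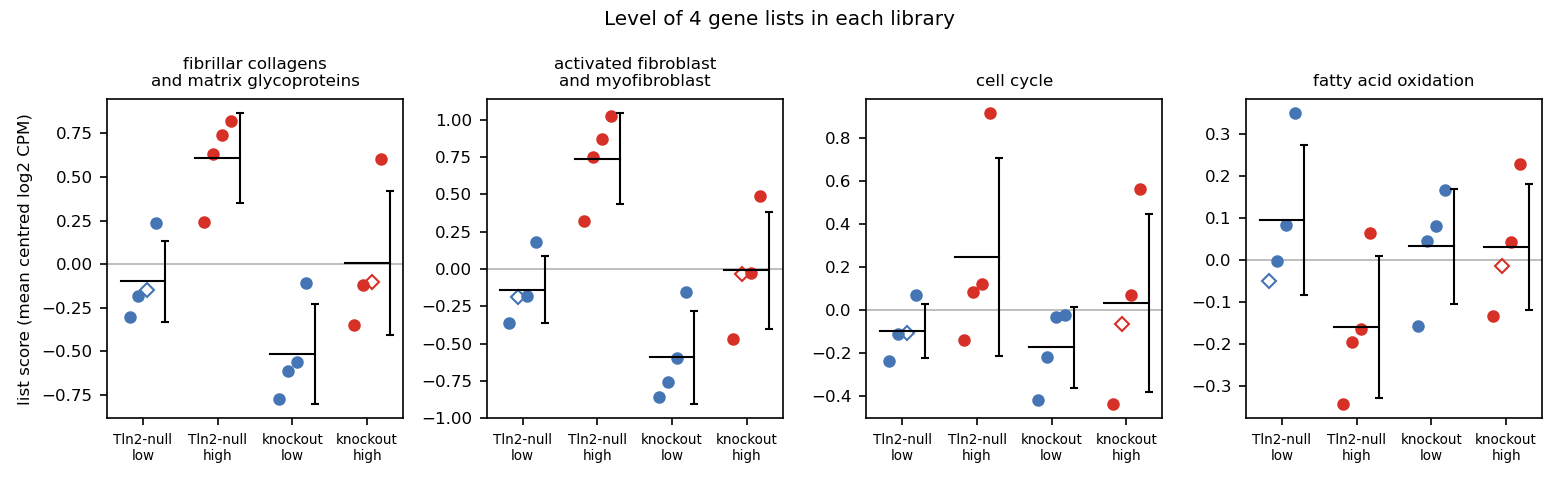
Level of 4 gene lists in each library (mean over members of centred log2 CPM) by genotype and marker group; bars are the mean and SD of 4 libraries, and open diamonds are mouse 8 of each genotype. Marker-high hearts are higher on average for the first 3 lists, but the cell cycle mean rests largely on Tln2-null mouse 4 at 0.91 and knockout mouse 2 at 0.56.

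Fibroblast markers moved in the same direction as the matrix genes. Of 25 quiescent fibroblast markers, 22 were higher and 3 lower, 14 and 1 at an unadjusted p under 0.05, with a median of 0.22. In Tln2-null mice the median was 0.30, with 12 higher and 1 lower at that threshold. In knockout mice it was 0.15, with 2 higher and 0 lower. The summed level of these markers ran from 3597 through 4507 to 5237 CPM in marker-high and from 3133 through 3820 to 4471 CPM in marker-low hearts. Of the defining markers, Pdgfra had medians of 58.4 and 48.1, Tcf21 of 10.2 and 8.04, and Dcn of 722 and 640 unscaled CPM in marker-high and marker-low hearts, with overlapping ranges. Mfap5, a microfibril protein, had a log2 fold change of 0.80 ± 0.23 (edgeR adjusted p = 0.209), and Col15a1, a basement membrane collagen, 0.63 ± 0.19 (0.215). In bulk samples fewer cells of a type and less RNA per cell cannot be told apart, and the part of fibroblast number in the matrix genes was not tested. Cardiomyocyte markers had a median of -0.02, with 8 of 20 higher, and a summed level of 76071 to 89001 CPM in marker-high and 79003 to 91501 CPM in marker-low hearts.

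Matrix remodelling enzymes followed at smaller sizes, with 26 of 32 higher, 12 at an unadjusted p under 0.05 and a median of 0.20. The median was 0.08 in Tln2-null mice, with 20 of 32 higher, and 0.25 in knockout mice, with 28 of 32 higher. Loxl1, a lysyl oxidase of elastic fibres, had 0.50 ± 0.11 (edgeR adjusted p = 0.0921), and Timp1, an inhibitor of matrix metalloproteinases, 0.68 ± 0.19 (0.175). The TGF-beta and activin list had 27 of 34 higher and a median of 0.11, with 8 higher and 2 lower at an unadjusted p under 0.05. The ligand Tgfb3 had 0.42 ± 0.09 (0.0921), and the ligand Bmp6 -0.33 ± 0.11 (0.252). Fstl1, a secreted follistatin-like glycoprotein, had 0.57 ± 0.13 (0.112).

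Cell cycle genes were higher in 31 of 33 members, 10 at an unadjusted p under 0.05, with a median of 0.56. The level of this list was 0.91 in Tln2-null mouse 4 and 0.56 in knockout mouse 2. It ran from -0.44 to 0.12 in the other marker-high hearts and from -0.42 to 0.07 in the marker-low hearts. The replication helicase subunits Mcm3, at 9.50 ± 1.52 against 6.79 ± 1.09 CPM, Mcm5, at 7.03 ± 1.61 against 4.82 ± 0.79 CPM, and Mcm6, at 15.4 ± 2.2 against 12.2 ± 1.6 CPM, led the list with edgeR adjusted p of 0.102, 0.144 and 0.209. E2f1, the transcription factor that drives entry into replication, had 0.77 ± 0.23 (0.220). The list median dropped to 0.07 when Nppa was left out of the score, to 0.16 without Myh7, and to 0.06 with only the 3 highest and 3 lowest hearts of each genotype.

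Genes of fatty acid oxidation leaned the other way, with 32 of 34 lower, 6 at an unadjusted p under 0.05, a median of -0.13 and none called. The median was -0.21 in Tln2-null mice, with 12 lower at an unadjusted p under 0.05, and -0.07 in knockout mice, with 0. The level of this list was -0.34, 0.065, -0.16 and -0.20 in marker-high and 0.35, 0.08, -0.0032 and -0.05 in marker-low Tln2-null hearts. In knockout hearts it was 0.04, -0.13, 0.23 and -0.01 in the marker-high and -0.16, 0.04, 0.17 and 0.08 in the marker-low group. The marker groups overlapped in both genotypes. Lpl, the lipase that supplies fatty acids from lipoproteins, ran from 3123 through 3651 to 4003 CPM in marker-high and from 3694 through 4008 to 4697 CPM in marker-low hearts (-0.18 ± 0.06, edgeR adjusted p = 0.252). Cpt2, the inner carnitine palmitoyltransferase, had -0.23 ± 0.07 (0.239), and the carnitine transporter gene Slc22a5 -0.29 ± 0.10 (0.328). Nuclear genes of oxidative phosphorylation had 33 of 35 lower but a median of only -0.04.

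For several lists of other cells a pooled median near 0 stood for medians of opposite sign in the genotypes, a difference that was not tested. Endothelial markers had a median of 0.01, with 7 of 24 higher and -0.06 in Tln2-null and 19 of 24 higher and 0.11 in knockout mice. Pericyte and smooth muscle markers had -0.04, with 5 of 20 higher and -0.13 in Tln2-null and 14 of 20 higher and 0.13 in knockout mice. Granulocyte and mast cell markers had 0.04, with 1 of 13 higher and -0.49 in Tln2-null and 13 of 13 higher and 0.41 in knockout mice. None of the 13 reached an unadjusted p under 0.05 in either genotype. The level of this list was 1.04 in marker-low Tln2-null mouse 8 and -0.22 to 0.01 in the other marker-low Tln2-null hearts. It was 0.74 in marker-high knockout mouse 2 and -0.24 to 0.04 in the other marker-high knockout hearts. Marker-high Tln2-null mouse 4 was at 0.65. Lymphocyte markers had -0.0019, with 0.21 in Tln2-null and -0.0041 in knockout mice. Macrophage markers (13 of 20 higher, median 0.09) had 0.05 in Tln2-null and 0.11 in knockout mice. Macrophage genes did not share 1 direction: C1qb, a complement subunit made by resident macrophages, had 0.18 ± 0.08 and the scavenger receptor Cd163 -0.34 ± 0.14 (edgeR adjusted p = 0.415 for both). Of 10 glia and neuron markers 8 were lower, with a median of -0.27, but the median was -0.47 in Tln2-null and 0.08 in knockout mice. Of 15 epicardial and mesothelial markers only 7 were measured, and Upk3b, Msln and Bnc1 were not among them. Of these 7, 6 were higher, with a median of 0.38. Their summed level overlapped, from 106 through 158 to 355 CPM in marker-high and from 111 through 149 to 211 CPM in marker-low hearts. Atrial and conduction markers had 6 of 16 higher with a median of -0.04, but 0.28 in Tln2-null and -0.20 in knockout mice. The atrial list member of lowest p was Kcnj3, at -0.35 (edgeR adjusted p = 0.0737). Dkk3, a secreted Wnt pathway protein on the same list, had 1.19 ± 0.27 (0.0921). The inducible heat shock gene Hspa1a read 85.9 CPM and its neighbour copy Hspa1b 53.1 CPM in Tln2-null mouse 5, a marker-high heart, while Hspa1a ran from 2.88 to 8.91 CPM in the marker-low hearts. Reads of these near-identical copies may be split between them.

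**Figure D4:**
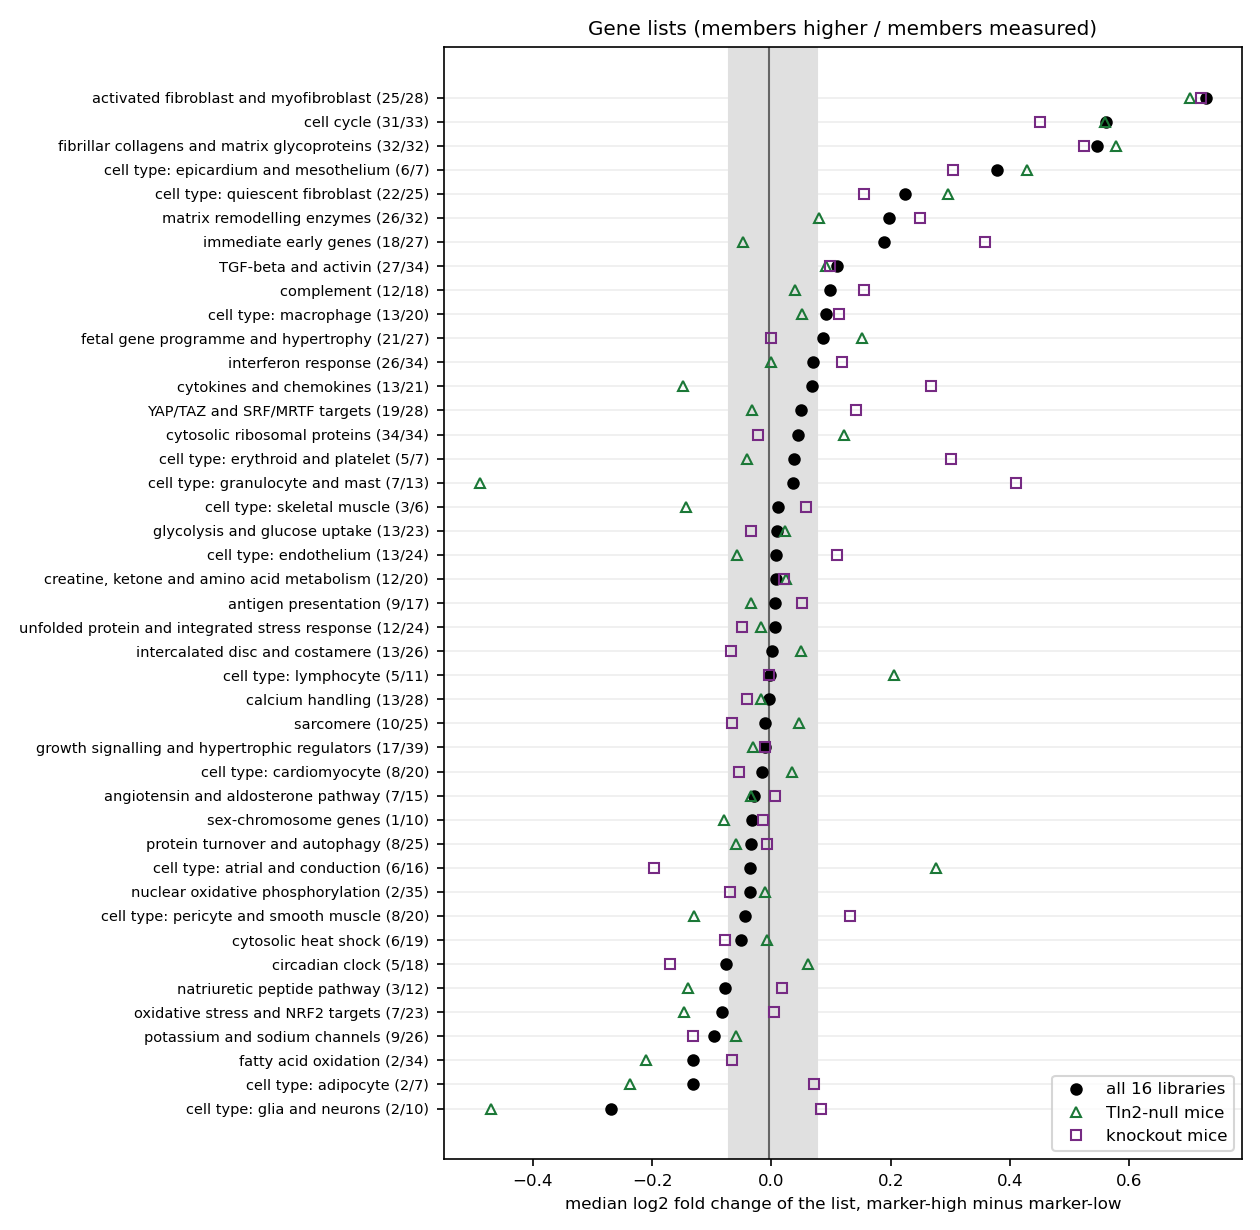
Median log2 fold change of each gene list, marker-high minus marker-low, over all 16 libraries (dots) and within each genotype (triangles and squares); the line is the median of all genes tested and the grey band their interquartile range, -0.07 to 0.08. Activated fibroblast, cell cycle and collagen lists lie farthest to the right, at 0.73, 0.56 and 0.55, with both genotypes on the same side.

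Within each genotype the contrast was of 4 against 4 hearts. Both contrasts came from 1 fit over all 16 libraries, which shared the estimate of the spread, so that leaving out a mouse of 1 genotype could move the calls in the other. In Tln2-null mice 10 genes rose (0.0726 percent) and 6 fell (0.0436 percent) at an edgeR adjusted p under 0.05, with 1319 genes at an unadjusted p under 0.05. In knockout mice 0 genes passed (0 percent), with 550 at an unadjusted p under 0.05 and a smallest edgeR adjusted p of 0.160; DESeq2 called 1. The smaller gap in score in knockout mice stands beside that difference in number, and its part in it was not tested. The difference of the contrast between genotypes passed for 0 genes (0 percent), with 520 at an unadjusted p under 0.05 and a smallest edgeR adjusted p of 0.366; DESeq2 called 5. No gene is therefore shown to differ between genotypes by edgeR.

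The 10 genes that rose in Tln2-null mice included Rcn3 and Gab2, and the 6 that fell included Gpt2, Kcnv2 and Mllt3. Igfbp3, a binding protein that holds insulin-like growth factors, read 54.0, 57.7, 77.7 and 55.6 CPM in marker-high and 38.7, 36.6, 25.9 and 35.8 CPM in marker-low Tln2-null hearts (0.84 ± 0.13, edgeR adjusted p = 0.0220). In knockout hearts Igfbp3 read between 39.5 and 49.5 CPM in both groups (0.03 ± 0.13). Mcm5 rose by 0.91 ± 0.14 (0.0220) in Tln2-null mice and had 0.13 ± 0.14 in knockout mice. Gpt2 fell by 0.60 ± 0.09 (0.0220) and Kcnv2 fell by 1.01 ± 0.17 (0.0344) in Tln2-null mice, and they had -0.23 ± 0.09 and -0.42 ± 0.17 in knockout mice.

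Others of this set were smaller in knockout mice or of opposite sign. Lrrc17, a secreted leucine-rich repeat protein, had 1.12 ± 0.18 (edgeR adjusted p = 0.0250) and 0.15 ± 0.18, Myh10, a nonmuscle myosin, 0.49 ± 0.09 (0.0344) and 0.03 ± 0.09, and Tmem135, a protein linked to mitochondria and peroxisomes, -0.49 ± 0.07 (0.0220) and -0.03 ± 0.07, each in Tln2-null and then in knockout mice. Cd200, an immune-regulatory surface protein, had 0.67 ± 0.12 (0.0374) and -0.05 ± 0.12. Pzp, a protease inhibitor present at under 2 CPM, had -2.04 ± 0.37 (0.0379) and 0.56 ± 0.34. Of the 16 genes, 14 had the same sign in knockout mice and 5 reached an unadjusted p under 0.05 there, Rcn3, Gab2, Gpt2 and Kcnv2 among them. Without Tln2-null mouse 1, 3 or 6 none of these 16 calls was made, and the count ran from 0 to 19 higher genes over the fits that left out 1 mouse, the most being without knockout mouse 2.

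**Figure D5:**
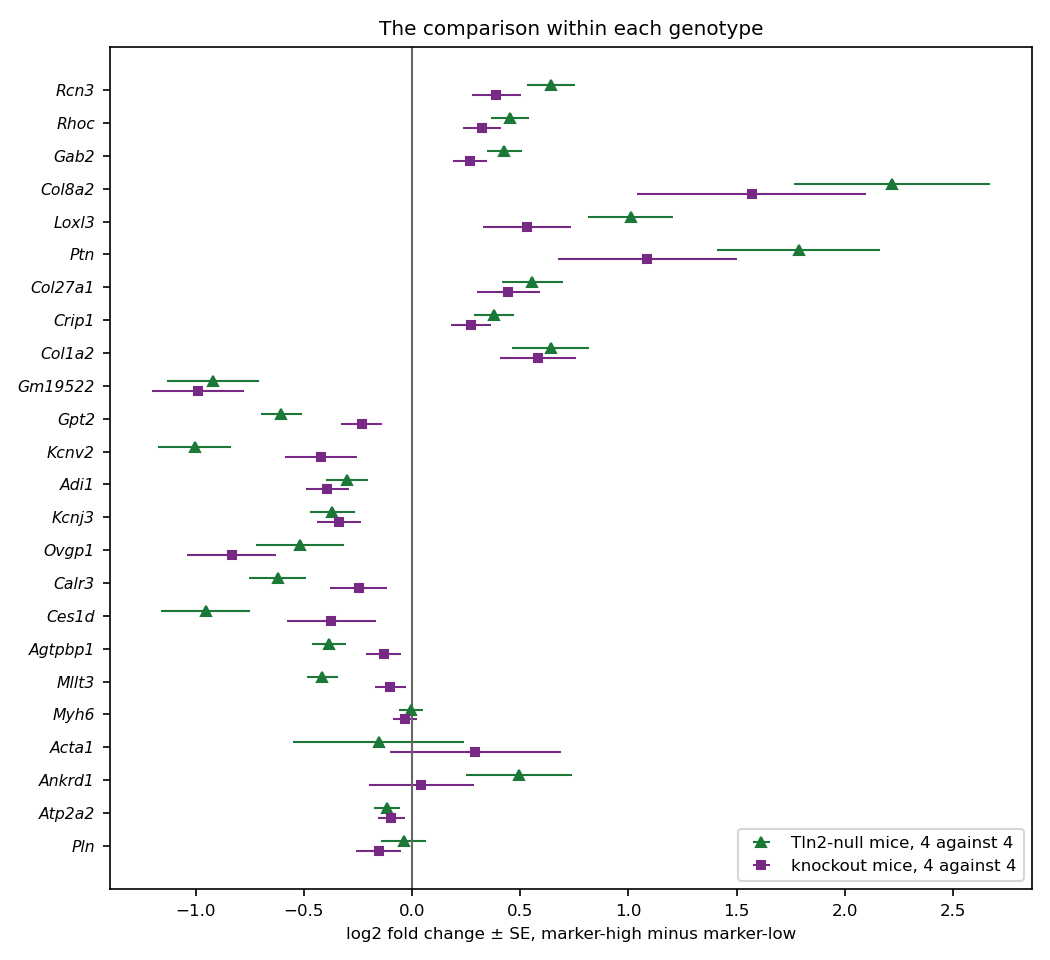
Log2 fold change ± SE, marker-high minus marker-low, of 19 leading genes and 5 further cardiac genes within Tln2-null mice (triangles) and within knockout mice (squares), 4 against 4 hearts each. All 19 leading genes have the same sign in both genotypes, and 16 of them are larger in Tln2-null mice. These genes were chosen by the fit over the same 16 libraries, which favours genes of the same sign in both genotypes.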

How the data were processed

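RNA was extracted with TRIzol, cleaned on Direct-Zol columns and made into directional libraries, per the labels' protocols. DRAGEN, DESeq2 and mm10 are named in the submitters' processing notes, without a role. The authors deposited whole counts per gene symbol and a normalized signal for 16405 genes. Multiplied back by a size factor for each library, 100 percent of the deposited signal values were whole counts within 0.001. It served only for the marker score; all tests used the deposited counts.

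Counts were fitted with edgeR 4.0.16 in R 4.3.3 (quasi-likelihood test, TMM scaling, filterByExpr by genotype and sex, 13775 genes kept). Adjusted p-values are Benjamini-Hochberg over the 13772 genes without the score genes, with a threshold of 0.05. The SE is the absolute log2 fold change over the root of the F statistic. Entries that name no gene held 2.62e-06 percent of counts. The script was tested on artificial counts with known answers. Gene positions are from GENCODE M21 (GRCm38), and promoters from RefSeq GRCm38.p6.

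Named genes were the called genes at 2 CPM or more, topped up to 10 in each direction by lowest p, up to 4 members of lowest p per described list, and Myh6, Acta1, Ankrd1, Atp2a2 and Pln. The marker genes, the rule of the split and the gene lists were chosen with earlier results of these data known. Alternatives were other scalings, filters, tools (DESeq2 1.42.0, limma 3.58.1, sva 3.50.0), covariates, scores and leaving out mice. A few genes that the rule would name are not reported here.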

Additional observations from a re-analysis of the deposited data

Results flagged for a closer look

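Within each marker group of 8 hearts, the highest or lowest value was set against the nearest other value over the range of the group. This singled out 18 of 162 gene and group pairs, 11.1 percent. A chance rate of about 1 in 20 would apply to independent values from a single normal distribution. It need not hold here, because the CPM were not logged, each group pooled both genotypes and many genes were chosen by their results. Whether 11.1 percent exceeds chance therefore cannot be told. No explanation was tested for any of the pairs singled out.

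Nppb stood out high in Tln2-null mouse 8 among marker-low hearts, at 629 CPM against at most 225 CPM in the others, and in knockout mouse 8 among marker-high hearts, at 507 CPM against at most 236 CPM. In knockout mouse 8 Kcnj3 (109 CPM) and Pln (5257 CPM) were also the highest of the marker-high hearts and Zbtb20 (11.8 CPM) the lowest. In Tln2-null mouse 8 Rcan1, at 231 CPM, and Hspa1a, at 8.91 CPM, were the highest of the marker-low hearts.

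Tln2-null mouse 1, the heart with the lowest score, had the highest Synpo2 (234 CPM), Scn4b (117 CPM) and Slc22a5 (67.0 CPM) of the marker-low hearts. Synpo2 encodes an actin-bundling protein. Tln2-null mouse 2 had the highest Col8a2 (4.80 CPM) and Fmod (17.2 CPM) of the marker-low hearts. The others of that group reached at most 1.91 CPM for Col8a2 and 3.09 CPM for Fmod.

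Tln2-null mouse 5 had Hspa1a at 85.9 CPM and Hspa1b at 53.1 CPM, where the other marker-high hearts reached at most 5.38 and 4.18 CPM. Igfbp3 in Tln2-null mouse 6 (77.7 CPM) and Gpt2 in knockout mouse 1 (59.8 CPM) were the highest of the marker-high hearts. Knockout mouse 4 had the highest Hrc (1420 CPM) and Mcm5 (6.59 CPM) of the marker-low hearts.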

How the results depend on the processing

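Between marker groups, the 3 higher and 1 lower calls became 7 and 3 with no filter on low counts, 110 and 28 with DESeq2, 28 and 5 with sex added, 27 and 6 with the title number, 36 and 7 with 1 surrogate variable, and 38 and 55 with the score as a continuous term. They became 0 and 1 without the genotype covariate, 78 and 15 with Nppb left out of the score, and 0 and 0 with Nppa or Myh7 left out or with only the 3 highest and 3 lowest hearts of each genotype. Without both mice apart in clock genes 1 and 1 genes passed, and without females with Y-linked reads 1 and 0. Leaving out 1 mouse gave 0 to 49 higher and 0 to 5 lower genes, with the most calls, 54, without knockout mouse 3. Of these 16 fits 8 made 0 calls. Within Tln2-null mice, 10 higher and 6 lower became 81 and 41 with DESeq2, 21 and 12 with sex added, and 0 to 19 and 0 to 12 when 1 mouse was left out. In knockout mice and for the difference between genotypes, 0 became 1 and 5 higher with DESeq2, and 0 to 1 higher when 1 mouse was left out. The cause was not tested. Medians of lists under other scores were added after seeing the data. With Nppa left out of the score the medians were 0.20 for collagens and glycoproteins, 0.021 for remodelling enzymes, 0.31 for activated fibroblasts, -0.0031 for TGF-beta, -0.11 for immediate early genes, 0.067 for cell cycle, -0.10 for endothelium, 0.28 for lymphocytes and -0.52 for granulocytes. With Myh7 left out they were 0.16 for cell cycle, 0.15 for epicardium and -0.11 for glia, and with Nppb left out -0.13 for cytokines. With the 3 highest and 3 lowest hearts they were -0.11 for cytokines, 0.060 for cell cycle, 0.23 for lymphocytes and -0.52 for granulocytes. Of 78 named genes, 73 kept their sign in every setting. Myh6 turned to 0.027 and Pln to 0.035 with Nppa left out of the score, and Acta1 to -0.073 and Pln to 0.010 with Myh7 left out. Leaving out 1 mouse gave -0.032 to 0.0030 for Myh6, -0.088 to 0.24 for Acta1, -0.090 to 1.43 for Hspa1a and -0.056 to 0.037 for Zbtb20. Zbtb20 also turned to 0.013 with voom, 0.0020 with the title number, 0.14 with Nppb left out of the score, 0.016 without the mice apart in clock genes and 0.046 without females with Y-linked reads. No paired analysis was possible because the replicate numbers follow the order of the records and do not pair mice. A gene with 3 counts stood at 0.156 to 0.269 CPM, and the number of mice limits the precision to a median SE of 0.09.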
